A study of Mus musculus with 65 samples.

Results

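Oncomodulin, the product of Ocm, is a small calcium-binding protein of the parvalbumin family and the hallmark calcium buffer of the cochlear outer hair cell. The genes described here are Ocm and 7 other calcium-binding protein genes, namely Pvalb, Calb1, Calb2, S100a1, Sri, Calm2 and Calm3, taken as 8 rows of the 55292 gene rows in the deposited count table. They were measured in all 65 single cells of the series, which were hand-picked outer hair cells (OHCs) of the mouse cochlea at postnatal day 10, 17 of them labelled Casz1 CKO and 48 labelled WT. The CKO cells came from animals of the genotype Atoh1Cre/+; Casz1flox/flox; Slc26a5FlpO/+; Rosa26FSF-H2BEGFP/+, in which Cre is driven from Atoh1, a gene of the developing hair cell lineage, and both Casz1 alleles are floxed. The WT cells came from Slc26a5FlpO/+; Rosa26FSF-H2BEGFP/+ animals without Cre. Both groups therefore carried 1 FlpO allele at Slc26a5, the prestin gene, which set off a nuclear GFP, and cells without prestin-driven FlpO could not be picked by it. Each library is 1 cell, and the labels name no animal or litter, so each genotype is 1 sample and no difference below has a replicate check.

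In hair cells, calcium enters at the ribbon synapse, through the mechanotransduction channels of the hair bundle and through the acetylcholine receptors under the efferent terminals. Calcium-binding proteins with EF-hand motifs shape these signals: buffers such as the parvalbumins and calbindins take up and shuttle calcium, while sensors such as calmodulin change shape on binding it and act on channels and enzymes. Ocm is known for its strong and almost exclusive expression in OHCs among cochlear cells, and mice without it lose hearing progressively.

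The Ocm gene lies on chromosome 5 (144019804 to 144026670, minus strand, GRCm38/mm10), and that of its relative parvalbumin, Pvalb, on chromosome 15 (78191114 to 78206400, minus strand). The start of both coding sequences is printed to show how far the genes have diverged, since reads of close copies can be assigned to the wrong gene. The first 90 coding bases, from the GENCODE M21 transcripts, differ at 37 positions, which are in capitals.
Ocm: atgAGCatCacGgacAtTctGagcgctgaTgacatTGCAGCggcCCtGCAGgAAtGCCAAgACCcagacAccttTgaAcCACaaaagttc
Pvalb: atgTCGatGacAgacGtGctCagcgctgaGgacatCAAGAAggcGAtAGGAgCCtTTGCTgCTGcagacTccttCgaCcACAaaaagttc

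Over their whole coding sequences Ocm and Pvalb were 58.8% identical, and Calb1 and Calb2 were 62.5% identical. No 50-base window of the Ocm, Pvalb, Calb1, Calb2 or S100a1 transcript occurred in a transcript of another gene. The calmodulin genes differ in another way. Calm2 and Calm3 encode the same protein from coding sequences that are 82.6% identical, and their first 90 coding bases are printed to show how far the genes of 1 protein have diverged. Capitals mark the 15 positions at which they differ.
Calm2: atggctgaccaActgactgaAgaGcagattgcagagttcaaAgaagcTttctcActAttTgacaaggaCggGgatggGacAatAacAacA
Calm3: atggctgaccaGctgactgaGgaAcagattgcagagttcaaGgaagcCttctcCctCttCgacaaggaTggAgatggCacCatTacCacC

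Of the 50-base windows, 12.7% in Calm2 and 2.77% in Calm3 also occurred in predicted genes (Gm14480, Gm15720 and Gm7308 for Calm2, Gm5881 for Calm3), and 1.26% of those in Sri occurred in other genes, so the levels of Calm2 in particular depend on how such reads were counted.

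The 17 CKO-labelled cells held 8239671 to 15320549 counts each and the 48 WT cells 7458126 to 17107710, and mitochondrially encoded genes took a median of 4.76% and 6.52% of them. The 9 OHC markers all had counts in both groups and summed to 4741 to 8625 CPM (counts per 1000000 counts) per cell in CKO-labelled cells and 3916 to 8519 CPM in WT cells. The 10 inner hair cell markers summed to a median of 752 CPM (range 363 to 2634) in CKO-labelled cells and 854 CPM (125 to 1948) in WT cells, with Tbx3, Nefh and Shtn1 at 0 in all CKO-labelled cells and Tbx3 at 0 in all WT cells. Most of this was Cabp2, which had counts in every cell. Summed over cells, it held 839 of 940 CPM in CKO-labelled and 754 of 937 CPM in WT cells. Otof stood at 81.6 and 170 CPM and Slc17a8 at 17.1 and 12.1 CPM. The 17 supporting cell markers had a median sum of 0.36 CPM (0 to 350.2) in CKO-labelled cells, 7 of them at 0 in every cell, and of 41.8 CPM (0 to 707) in WT cells, 2 of them at 0. Casz1 transcripts were counted at 46.2 CPM in CKO-labelled cells and 53.3 CPM in WT cells. In WT cells 1 to 11 and 12 to 45 they stood at 85.2 and 40.6 CPM, and the log2 ratio was -0.88 and 0.19 against these runs. They do not check the deletion, and the labels do not say which part of the gene is floxed. The WT cells numbered 1 to 11, 12 to 45 and 46 to 48 stand apart in the mitochondrial gene mt-Co2 (33.5 to 83.6, 229 to 644 and 100.1 to 111.3 CPM, against 94.8 to 283 CPM in CKO-labelled cells). No batch is named in the labels, and for the 8 genes values against each run are given as well. By Xist and Y-linked counts, 15 CKO-labelled cells and 9 WT cells had the Xist pattern, 8 of the 9 among WT cells 1 to 11. The Y-linked pattern was seen in 0 of 17 CKO-labelled and 37 of 48 WT cells. By run these were 3 of WT cells 1 to 11, 31 of the 34 WT cells 12 to 45 and 3 of WT cells 46 to 48. The comparison with all WT cells therefore sets mostly Xist-pattern cells against mostly Y-pattern cells.

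Ocm took more counts than any other gene in these cells, and it stood higher in CKO-labelled cells. Its level was 30575 CPM in the lowest, 46840 CPM in the median and 88794 CPM in the highest of the 17 CKO-labelled cells, against 12218, 36708 and 61361 CPM in the lowest, median and highest of the 48 WT cells. The groups overlapped over most of their range. Only CKO-labelled cells 11 and 12, at 61579 and 88794 CPM, exceeded the highest WT cell, and the lowest CKO-labelled cell, at 30575 CPM, stood just above the lower WT quartile of 30335 CPM. Summed over cells, Ocm stood at 49172 CPM in CKO-labelled cells (95% interval 49142 to 49203) and 36667 CPM in WT cells (36651 to 36683), 1.34-fold higher in CKO-labelled cells, a log2 ratio of 0.42. These intervals cover the counting error of reads only, not that of sampling molecules, and are far narrower than the spread between cells. In the 816 possible pairs of 1 CKO-labelled and 1 WT cell, the CKO-labelled cell was the higher in 80.1%. Ocm was the only 1 of the 8 genes with 1 group higher in at least 75% of pairs, a mark that 1.53% of the 10842 measured genes reached; measured means 5 CPM or more in whichever group was higher. Against WT cells 1 to 11 alone the Ocm share was 61.0% of pairs, while Calm2, at 81.3%, and Sri, at 75.4%, passed that mark. Against WT cells 12 to 45, Ocm passed it at 84.9%, as did S100a1, with the WT cell higher in 77.9%. Against the 3 WT cells 46 to 48, Ocm at 96.1% and Calm2 at 78.4% passed it. The share of all genes past this mark was taken only against all WT cells, and not apart for genes with at least 250 CPM.

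The size of the Ocm difference depended on which WT cells were used. Against WT cells 1 to 11, whose lowest, median and highest Ocm levels were 33751, 45793 and 55032 CPM, the log2 ratio was 0.10. With WT cells 12 to 45, at 12218, 33531 and 61361 CPM, it was 0.57, and with WT cells 46 to 48, at 29758, 31009 and 34073 CPM, it was 0.64. Among Xist-pattern cells only, 15 of them CKO-labelled and 9 WT, Ocm stood at 48074 CPM in CKO-labelled and 43343 CPM in WT cells, a log2 ratio of 0.15. CKO-labelled cells thus stood close to WT cells 1 to 11 and above WT cells 12 to 45, and the part of the run or of the Xist pattern in the difference was not tested.

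By counts, Ocm ranked 1 among all genes in 17 of 17 CKO-labelled and 44 of 48 WT cells, and 5 in the WT cell where it ranked lowest. It took a median of 4.68% of all counts (3.06% to 8.88%) in CKO-labelled cells and 3.67% (1.22% to 6.14%) in WT cells. All 8 genes together took a median of 6.99% in CKO-labelled and 5.76% in WT cells. Without Ocm, the other 7 took 2.34% (1.24% to 2.95%) in CKO-labelled cells and 1.96% (1.24% to 3.86%) in WT cells.

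**Figure D1:**
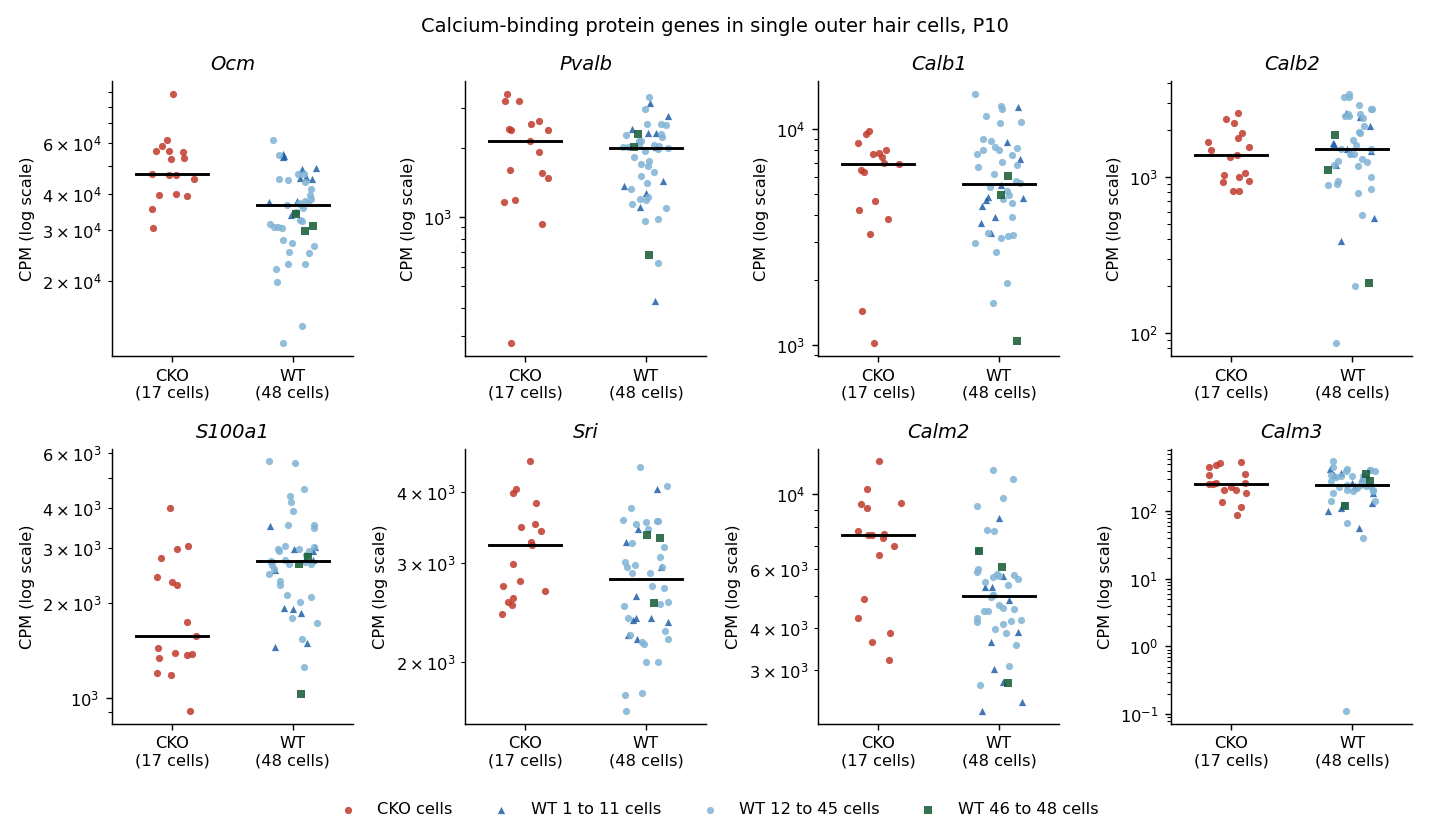
CPM of each calcium-binding protein gene in every cell, on a log scale that differs between panels, with CKO-labelled cells left and WT cells right; each point is 1 cell, the black line is the group's median, and the WT points are marked by run of cell number. Ocm has medians of 46840 CPM in CKO and 36708 CPM in WT cells with overlapping groups, S100a1 has a CKO median of 1569 against 2711 CPM in WT cells, and 1 WT cell is almost without Calm3.

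Pvalb encodes parvalbumin, a slow-onset mobile buffer best known from fast muscle and inhibitory neurons. Its CPM was 279 in the lowest, 2137 in the median and 3462 in the highest CKO-labelled cell, against 429, 1990 and 3338 in WT cells. The groups covered nearly the same range, and summed levels were 1994 CPM in CKO-labelled and 1820 CPM in WT cells, a log2 ratio of 0.13. The ratio lay between 0.10 and 0.24 against the 3 runs of WT cells, and in 58.0% of pairs the CKO-labelled cell had more Pvalb. The low end rested on single cells: CKO-labelled cell 14 had 279 CPM and the next 925 CPM, and without cell 14 the log2 ratio was 0.23.

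The calbindins are larger EF-hand buffers. Calb1, for calbindin (chromosome 4, 15881264 to 15908064, plus strand), had 1014 CPM in the lowest, 6909 in the median and 9813 in the highest CKO-labelled cell, against 1044, 5602 and 14679 CPM in WT cells. The medians and the sums pointed in different directions: summed levels were 6136 CPM in CKO-labelled and 6190 CPM in WT cells, a log2 ratio of -0.013, and 51.2% of pairs had more in the CKO-labelled cell. Taking the runs 1 to 11, 12 to 45 and 46 to 48 in turn as WT, the log2 ratio was 0.07, -0.10 and 0.61, so no direction can be given for Calb1. Calb2, for calretinin (chromosome 8, 110137502 to 110168210, minus strand), which marks inner hair cells and many sensory neurons, had 817, 1386 and 2586 CPM in the lowest, median and highest CKO-labelled cell, against 86.0, 1505 and 3428 CPM in WT cells. The CKO-labelled cells lay within the WT range, and summed levels were 1431 CPM in CKO-labelled and 1647 CPM in WT cells, a log2 ratio of -0.20. That ratio was -0.12 and -0.29 against WT cells 1 to 11 and 12 to 45 but 0.42 against WT cells 46 to 48, of which 1 cell had 211 CPM.

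S100a1 (chromosome 3, 90511034 to 90514392, minus strand) encodes an S100 protein, a dimeric EF-hand protein best known as a regulator of calcium cycling in heart muscle. It was the gene with the lowest ratio of the 8. Levels were 907, 1569 and 4003 CPM in the lowest, median and highest CKO-labelled cell, against 1031, 2711 and 5629 CPM in WT cells. Most CKO-labelled cells lay in the lower part of the WT range, although the highest of them, at 4003 CPM, stood above the upper WT quartile of 3004 CPM. Summed levels were 1983 CPM in CKO-labelled cells (1977 to 1989) and 2753 CPM in WT cells (2748 to 2757), 1.39-fold higher in WT cells, a log2 ratio of -0.47. The WT cell was higher in 74.6% of pairs. Unlike those of the calbindins, the direction held against every run, at -0.28 for WT cells 1 to 11, -0.58 for 12 to 45 and -0.12 for 46 to 48, and among Xist-pattern cells at -0.47.

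Sri (chromosome 5, 8046078 to 8069379, plus strand) encodes sorcin, a penta-EF-hand protein that binds the ryanodine receptor and voltage-gated calcium channels in the heart. Levels were 2436, 3219 and 4526 CPM in the lowest, median and highest CKO-labelled cell, against 1638, 2802 and 4428 CPM in WT cells. Summed levels were 3221 CPM in CKO-labelled and 2846 CPM in WT cells, a log2 ratio of 0.18, and 66.5% of pairs had more in the CKO-labelled cell. The ratio was 0.24, 0.16 and 0.07 against the 3 runs of WT cells and 0.19 among Xist-pattern cells.

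The calmodulin genes encode the sensor that regulates, among much else, the voltage-gated calcium channels and prestin. Calm2 lies on chromosome 17 (87433412 to 87446935, minus strand) and Calm3 on chromosome 7 (16915379 to 16924114, minus strand). Calm2 had 3221, 7542 and 12512 CPM in the lowest, median and highest CKO-labelled cell, against 2268, 4998 and 11825 CPM in WT cells. The upper part of the CKO-labelled group was denser, but the groups overlapped almost fully. Summed levels were 7187 CPM in CKO-labelled cells (7175 to 7198) and 5265 CPM in WT cells (5259 to 5271), 1.36-fold higher in CKO-labelled cells. The log2 ratio of 0.45 was the highest of the 8, and 71.1% of pairs had more Calm2 in the CKO-labelled cell. The ratio was 0.72, 0.34 and 0.47 against the 3 runs of WT cells and 0.56 among Xist-pattern cells. Calm3 had 88.9, 249.9 and 535 CPM in the lowest, median and highest CKO-labelled cell, against 0.11, 246.6 and 545 CPM in WT cells. Its medians nearly coincided, and summed levels were 292 CPM in CKO-labelled and 253 CPM in WT cells, a log2 ratio of 0.21, or 0.34, 0.15 and 0.21 against the 3 runs and 0.02 among Xist-pattern cells. The lowest Calm3 value came from WT cell 19, with 0.11 CPM at a total of 9107203 counts, and the next lowest WT cell had 40.4 CPM.

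**Figure D2:**
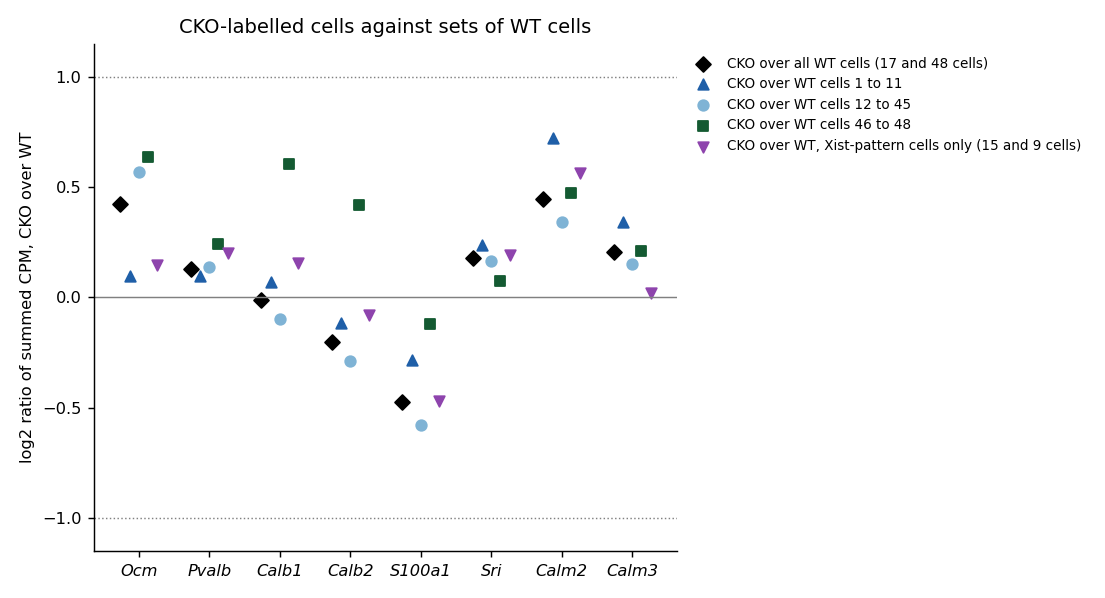
Log2 ratio of summed CPM, CKO over WT, for each calcium-binding protein gene against all WT cells, against 3 runs of WT cell numbers and among Xist-pattern cells only; the dotted lines mark 2-fold. All points lie within 2-fold; those of Ocm range from 0.10 to 0.64, those of S100a1 are all below 0, and those of Calb1 and Calb2 fall on both sides of 0.

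None of the 8 genes was 2-fold apart between CKO-labelled and WT cells, whereas 29.5% of the 10842 measured genes were. The share was smaller among genes with many counts: of the 550 genes with at least 250 CPM in both groups, the level at which all 8 genes lay, 2.18% were 2-fold apart. At 1.5-fold the count was again 0 of 8, against 48% of measured genes and 8% of the genes with at least 250 CPM. In CKO-labelled cells 5 of the 8 genes stood higher and 3 lower. Their median log2 ratio was 0.15 (range -0.47 to 0.45), beside 0.01 over all measured genes. With the 3 runs of WT cells in turn, 6, 5 and 7 of the 8 stood higher in CKO-labelled cells, and the median was 0.10, 0.14 and 0.33, beside 0.06, 0.00 and 0.15 over all genes. Again 0 of 8 were 2-fold apart, against 40.1%, 32.9% and 55.1% of genes in the same comparisons. Among Xist-pattern cells the median was 0.15 and 0 of 8 were 2-fold apart, against 43.4% of genes. For no gene of the 8 were the groups free of overlap, nor for any other measured gene (0%).

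The driver gene of the reporter moved more than any of the 8 between runs. Slc26a5 stood at 1175 CPM in CKO-labelled and 931 CPM in WT cells, a log2 ratio of 0.34. It was -0.49 against WT cells 1 to 11 and 1.03 against WT cells 12 to 45, so the runs differ in this OHC gene as well as in Ocm.

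To compare the genes with each other, CPM was divided by the length of all exons of a gene in kilobases. Ocm stood far above the others. Its level per length was 67084 CPM per kilobase in CKO-labelled and 50024 CPM per kilobase in WT cells, and it exceeded the next gene in 17 of 17 CKO-labelled and 48 of 48 WT cells. Calm2 came next in CKO-labelled cells at 4899 CPM per kilobase, followed by S100a1 at 2857, Pvalb at 1915, Calb1 at 1266, Calb2 at 821, Sri at 664 and Calm3 at 121 CPM per kilobase. In WT cells S100a1 took that place at 3966 CPM per kilobase, followed by Calm2 at 3589, Pvalb at 1749, Calb1 at 1277, Calb2 at 945, Sri at 587 and Calm3 at 104 CPM per kilobase. Only at the ends did the order hold in every cell. Sri exceeded Calm3 in all 17 CKO-labelled and all 48 WT cells. Between them, neighbours often changed places: Calm2 exceeded S100a1 in 13 of 17 CKO-labelled cells, S100a1 exceeded Calm2 in 32 of 48 WT cells, S100a1 exceeded Pvalb in only 10 of 17 CKO-labelled cells, and Calb2 exceeded Sri in 10 of 17 CKO-labelled and 37 of 48 WT cells. With the longest coding transcript as the length, Sri came before Calb2 in CKO-labelled cells (1286 and 1000.2 CPM per kilobase) and Calm2 before S100a1 in WT cells (4369 and 4066 CPM per kilobase), so these places in the order rest on the choice of length.

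**Figure D3:**
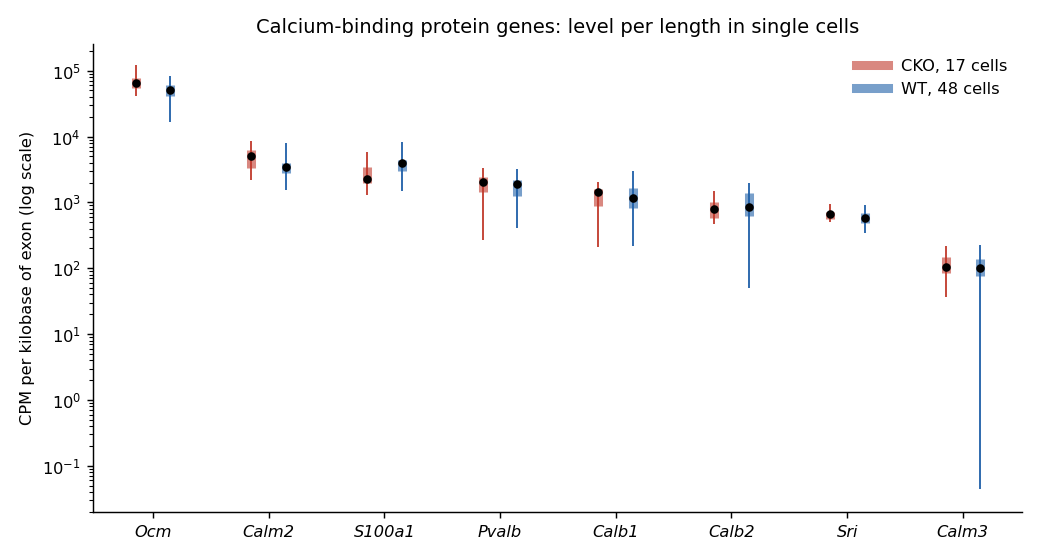
Level per length of the calcium-binding protein genes, in CPM per kilobase of exon on a log scale, CKO-labelled cells left of WT cells for each gene; dots are medians over cells, thick bars the quartiles and thin lines the lowest and highest cell. Ocm lies above all the others, the genes from Calm2 to Sri overlap with their neighbours, and the line of Calm3 in WT cells runs down to 1 cell near 0.05 CPM per kilobase.

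All 8 genes had a count in every cell, and at 10 counts only Calm3 was missed, in WT cell 19. The genes differed in how even they were between cells. Over all cells of a group, Sri was the most even, with a coefficient of variation of 19.5% in CKO-labelled and 23.1% in WT cells. Of the 77 genes with at least 1000 CPM only 2 and 5 were more even. The values over all WT cells include the difference between runs. Within WT cells 1 to 11 Ocm was more even than Sri, at 15.7% against 21.8%. Within WT cells 12 to 45 Sri was at 24.5% and Ocm at 31.6%. Ocm varied by 26.4% in CKO-labelled and 29.9% in WT cells, below the median of the 77 genes of 34.1% and 32.4%. Calb1, at 43% in CKO-labelled and 50.4% in WT cells, and Calb2, at 37.9% and 51.6%, varied more than that median. So did Pvalb, at 43.4% and 35.7%, S100a1, at 43.5% and 35%, and Calm2, at 35.8% and 39.6%. Calm3 varied by 48.4% in CKO-labelled and 46.4% in WT cells. These are descriptions of the cells picked, and Calm3 lies below the 1000 CPM of the genes it would be set beside.

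Across cells, the 8 genes did not vary as 1 group. Spearman's rho was taken within CKO-labelled cells (n = 17), WT cells 1 to 11 (n = 11) and WT cells 12 to 45 (n = 34), since pooled cells would carry the difference between runs. Both genes of a pair are counted in the same library and divided by the same total. Of the 28 pairs, 6 had a positive rho in all 3 sets, 4 a negative one, and 18 were mixed in sign. Pvalb was the only 1 of the 7 that ran with Ocm in all 3 sets, with a rho of 0.27, 0.65 and 0.46. Calb1 ran against Ocm, with a rho of -0.43, -0.60 and -0.39, and so did Calm2, at -0.40, -0.34 and -0.55, and S100a1, at -0.37, -0.47 and -0.32. Calb2 changed sign, at 0.51, -0.37 and -0.39, as did Sri, at 0.26, 0.11 and -0.53. Calm3 stayed near 0, at 0.12, -0.10 and -0.14. The only pair of the 28 with a rho of 0.50 or more in all 3 sets was Calb1 with Calm2, at 0.50, 0.52 and 0.56.

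**Figure D4:**
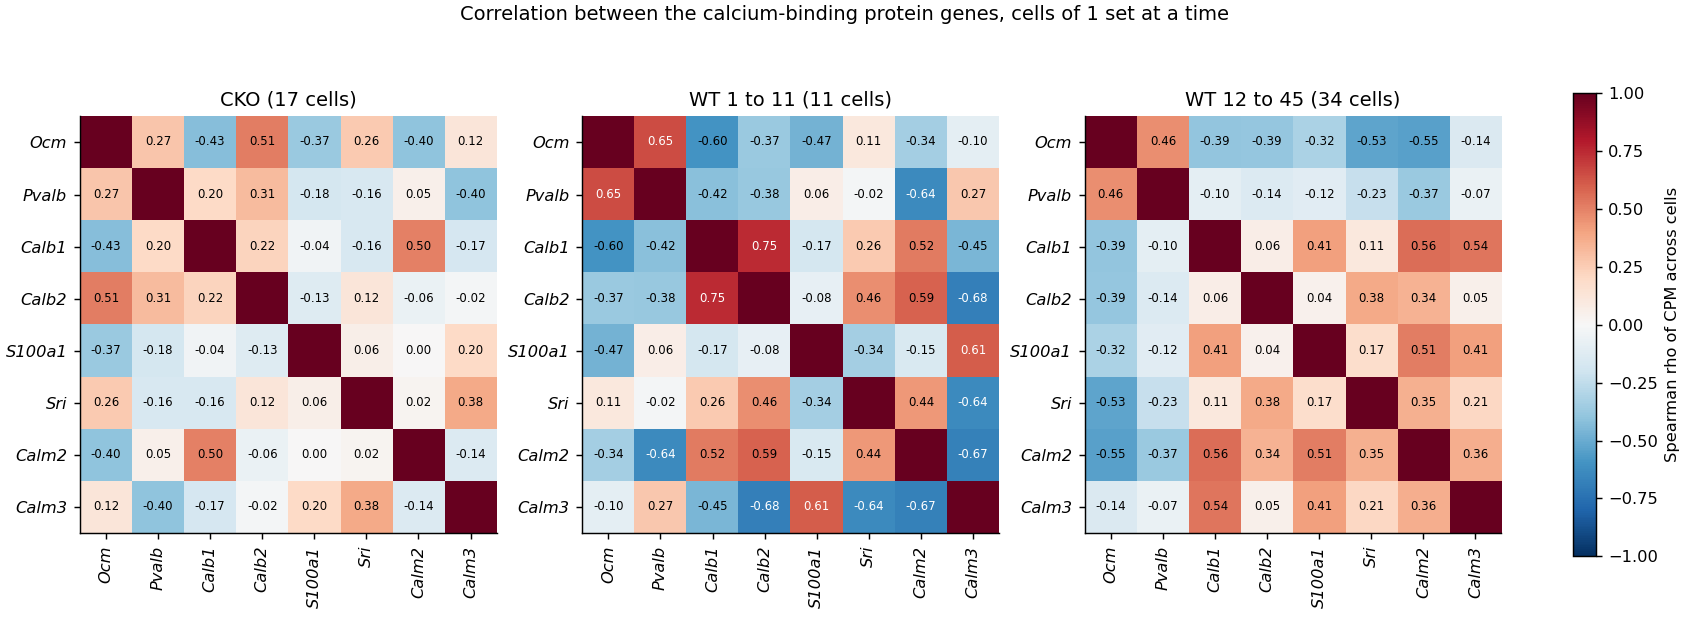
Spearman's rho of CPM across cells for each pair of calcium-binding protein genes, in CKO-labelled cells and in both larger runs of WT cells; red is positive and blue negative, and the diagonal is each gene with itself. In the top row Pvalb is positive and Calb1, S100a1 and Calm2 are negative in all 3 sets, while Calb2 and Sri change sign.

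Single cells show the spread behind these values. CKO-labelled cell 11, with 61579 CPM of Ocm, had the lowest Calb1 of its group at 1014 CPM, and CKO-labelled cell 10, with the lowest Ocm at 30575 CPM, had the highest S100a1 at 4003 CPM. WT cell 44, with 19954 CPM of Ocm, had the highest S100a1 and the highest Calm2 of the WT cells, at 5629 and 11825 CPM. CKO-labelled cell 12 did not follow this: it had the highest Ocm, at 88794 CPM, together with 8029 CPM of Calb1 and 9081 CPM of Calm2, both above their group medians. The ratio of Ocm to Calb1 counts within a cell ran from 3.63 to 60.7 in CKO-labelled cells (median 7.72) and from 1.48 to 28.5 in WT cells (median 6.68). A rho below 0 with Ocm was common: of the 4556 genes ranked against it, 19.8% were negative and 9.66% positive in all 3 sets. Ocm also ran against the cell's total count, with a rho of -0.36, -0.21 and -0.38 in the 3 sets, and the part of depth in these values was not tested.

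**Figure D5:**
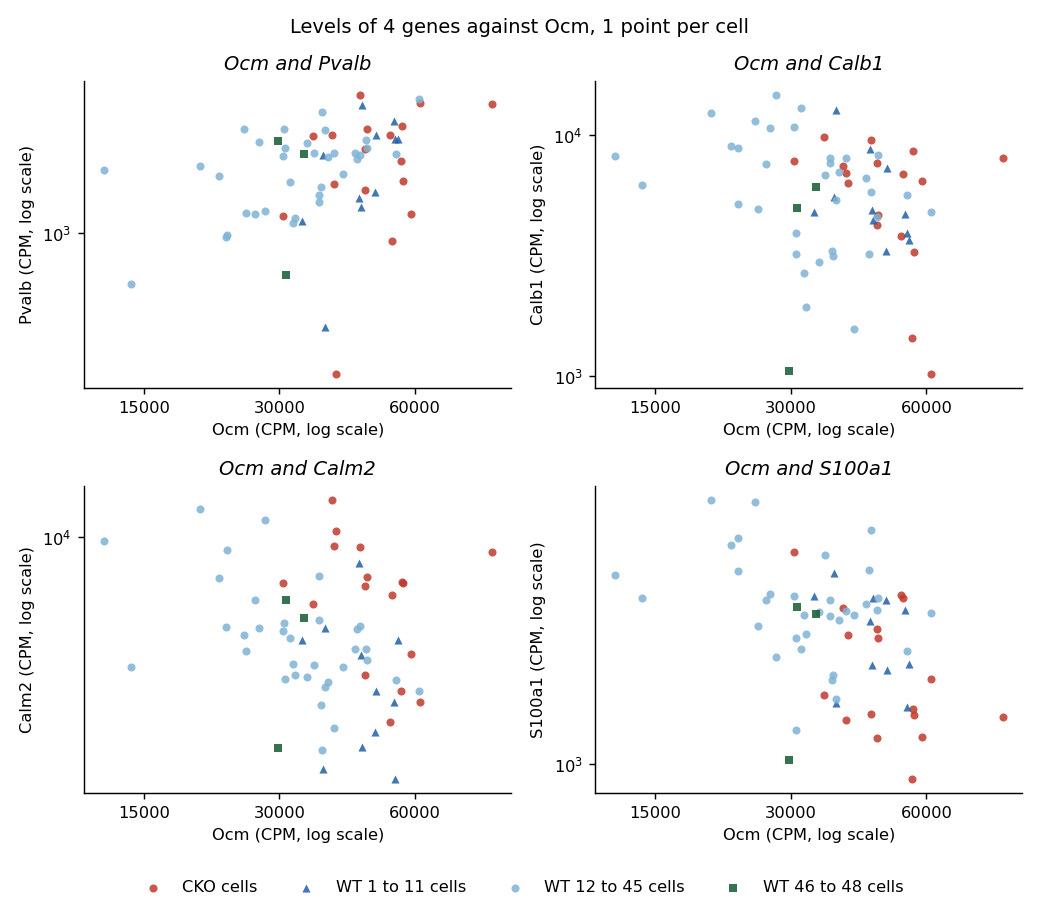
Levels of Pvalb, Calb1, Calm2 and S100a1 (vertical axes) against Ocm (horizontal axes), in CPM on log scales, with 1 point per cell coloured by group and run. Pvalb tends upward with Ocm and the other 3 genes tend downward within CKO-labelled cells and both larger runs of WT cells, with wide scatter and with CKO-labelled cell 12 far to the right at 88794 CPM of Ocm.

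Among the 4556 genes with at least 20 CPM in both groups and a count in at least 50% of the cells of each set, the genes most like Ocm were ranked by the mean of the 3 rho values. Cib2 came first, with a mean rho of 0.59 (0.44, 0.77 and 0.56 in the 3 sets). It encodes another EF-hand protein, a part of the hair cell mechanotransduction complex, and its exons overlap those of Sh2d7 on the other strand. Next were Ptn, for the growth factor pleiotrophin, with a mean rho of 0.57, Serf1 with 0.55, whose exons overlap BC001981, Septin4, for a septin of the cytoskeleton, with 0.52, and Ccni, for cyclin I, with 0.52. Pvalb ranked 10th from the top, while Calb1 ranked 10th, Calm2 27th and S100a1 57th from the bottom. Of these 5 genes, Serf1 and Septin4 stood higher and the other 3 lower in CKO-labelled cells: Cib2 stood at 4353 CPM in CKO-labelled and 4867 CPM in WT cells, Ptn at 485 and 798, Serf1 at 717 and 575, Septin4 at 3551 and 2395, and Ccni at 458 and 772 CPM.

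Other calcium genes were taken as lists. Of 35 other EF-hand buffers and sensors, 18 were measured. In CKO-labelled cells 7 of these stood higher and 11 lower, and the median log2 ratio was -0.15. None was 2-fold apart, beside 29.5% of all measured genes and 2.18% of the genes with at least 250 CPM in both groups. The lowest were Tesc, for tescalcin, at 237 CPM in CKO-labelled and 437 CPM in WT cells, Necab2, at 24.3 and 44.5 CPM, and Efhd2, for swiprosin, at 596 and 1026 CPM. Tesc and Efhd2 were lower in CKO-labelled cells against each run (log2 ratios of -0.88, -0.84 and -1.28 for Tesc, and -0.67, -0.79 and -1.12 for Efhd2), whereas Necab2 gave -0.14, -1.17 and 0.32. Cabp7 stood at 16.5 CPM in CKO-labelled and 9.0 CPM in WT cells but was counted in only 5 of 17 and 15 of 48 cells. Of its counts over CKO-labelled cells, 1 cell held 51.0%, and its exons overlap Zmat5.

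Of 7 entries in the list of penta-EF-hand proteins, the family of Sri, 6 were measured. In CKO-labelled cells 3 of them stood higher and 3 lower, and the median log2 ratio was 0.13. Past 2-fold was 1, beside 29.5% of all measured genes. That gene, Capn5, encodes a calpain without the penta-EF-hand domain, so the counts and the median include 1 gene outside the family. It had 1480 counts over CKO-labelled cells, of which 1 cell held 99.9%, and 2 counts over WT cells. Gca, for grancalcin, stood at 33.3 CPM in CKO-labelled and 18 CPM in WT cells, Capn2 at 8.20 and 14.4, and Capns1 at 14.1 and 8.96 CPM. Each was counted in fewer than 50% of cells. Of the counts over CKO-labelled cells, 1 cell held 19.3% for Gca, 68.8% for Capn2 and 56.7% for Capns1. The direction turned between runs for Capn2, at log2 ratios of 1.74, -1.11 and -1.99, and for Capns1, at 1.34, 0.69 and -0.85. Of 13 entries in the list of other S100 proteins, 4 were measured, with a median of -0.32. Past 2-fold were 2 of the 4, beside 29.5% of all measured genes. S100pbp encodes a binding partner of an S100 protein and not an S100 protein. It stood at 5.42 CPM in CKO-labelled and 21.6 CPM in WT cells. S100b, at 12.1 and 3.64 CPM, was counted in 2 of 17 and 7 of 48 cells. Of its counts over CKO-labelled cells, 1 cell held 99.96%. S100a10 stood at 6.86 and 9.73 CPM, and S100a13 at 33.5 and 37.0 CPM. Against WT cells 46 to 48 the direction of S100pbp, S100a10 and S100a13 turned. Unlike S100a1, each of the 4 was missed in some cells of both genotypes.

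Calcium-binding proteins of the endoplasmic reticulum and Golgi were taken as another list. Of 15 such genes 13 were measured; 8 stood higher and 5 lower, and the median was 0.29. Past 2-fold were 2 in each direction, a share near the 29.5% of all measured genes. Hspa5, for the chaperone BiP, which also stores calcium, stood at 1974 CPM in CKO-labelled and 511 CPM in WT cells, a log2 ratio of 1.95 that was 2.01, 2.10 and 0.86 against the 3 runs. Hsp90b1, for the chaperone GRP94, stood at 593 and 239 CPM, a log2 ratio of 1.31 (1.56, 1.38 and 0.21 against the runs), with exons that overlap other genes. The lowest were Calu, for calumenin, at 45.6 CPM in CKO-labelled and 103 CPM in WT cells, and Casq1, for a calsequestrin, at 46 and 97.3 CPM, whose log2 ratio was -1.11, 0.41 and -3.93 against the runs.

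Of 30 calmodulin-binding enzymes and proteins, 19 were measured; 8 stood higher, 2 of them past 2-fold, and 11 lower, 1 of them past 2-fold, beside 29.5% of all measured genes, and the median was -0.17. The extremes rested on few cells: Camkk1 had 1128 counts over CKO-labelled cells, 99.9% of them in 1 cell, against 1 count over WT cells, and Pde1b had 8 counts in 1 CKO-labelled cell against 5464 counts in 11 of 48 WT cells. Eef2k stood at 36.9 CPM in CKO-labelled and 17.6 CPM in WT cells and Camta2 at 31.7 and 15.9 CPM. Of their counts over CKO-labelled cells, 1 cell held 39.3% and 37.8%. The log2 ratio of Camta2 was 1.83, 1.21 and -1.08 against the runs. Of 28 entries in the list of calcium entry and release channels, 20 were measured. In CKO-labelled cells 14 stood higher and 6 lower, and the median was 0.29. Past 2-fold were 5, all higher, beside 29.5% of all measured genes in either direction. Cacna1h, for a T-type calcium channel, had 1829 counts in 4 of 17 CKO-labelled cells and none in 48 WT cells. Of its counts over CKO-labelled cells, 1 cell held 50.03%. With the WT group set to 3 counts, Cacna1h was 1672-fold higher in CKO-labelled cells, a value that rests on this setting. By the same setting its log2 ratio was 8.89, 10.08 and 6.79 against the runs. Ryr3 stood at 21.3 CPM in CKO-labelled and 6.37 CPM in WT cells, Stim2 at 32.9 and 11.7, and Orai3 at 9.43 and 3.82 CPM. Each was counted in fewer than 50% of the cells of either group. Of their counts over CKO-labelled cells, 1 cell held 41.9%, 43.9% and 36.4%. Over WT cells 1 cell held 44.9%, 23.9% and 64.0%. Stim2 encodes a calcium sensor of the endoplasmic reticulum and not a channel. Exons of Gca, Capn2, Capns1, Calu, Casq1, Eef2k, Cacna1h and Ryr3 overlap a gene on the other strand, whose reads cannot be told apart from theirs without the strand setting.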

How the data were processed

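Single OHCs were dissociated and picked by hand, and Smart-Seq HT cDNA, which covers whole transcripts without molecular identifiers, was tagmented, per the labels' protocols. The shared protocol text names inner hair cells and iOHCs, whereas titles and design name OHCs, which were followed. What the authors deposited is a single table of raw counts, whole numbers per gene, with 65 columns of cells. HISAT2 2.2.1, StringTie 2.2.1, featureCounts 2.0.1 and mm10 were used, per the submitters' processing notes; the sources used here do not give the strand setting, the annotation or any filter on cells. Without the strand setting, genes that overlap on opposite strands cannot be told apart, but no exon of the 8 genes overlaps another gene. Of the table's symbols, 96.4% are in GENCODE M21 (GRCm38), from which positions, lengths and sequences were taken. All 2080 pairs of cells held different columns.

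Counts were summed per genotype and divided by the summed total (CPM, per 1000000 counts). Intervals (95%) are exact Poisson for sums and exact conditional (Clopper-Pearson) for ratios, and cover the counting error of reads only. They treat reads as independent, which reads of amplified cDNA are not, so the error of sampling molecules is not covered. With 1 sample per genotype there is no test and no p-value. A gene was called apart at 2-fold or more, given 5 CPM or more in whichever group was higher. A group without counts was set to 3 counts. In pairs of cells, ties counted as 0.5. The Xist pattern meant 10 or more Xist counts beside under 10 over 4 Y-linked genes. The Y-linked pattern meant under 10 Xist counts beside 10 or more over those genes. The 8 genes, the lists, the runs of WT cell numbers and all rules were chosen with earlier results of these data known. The rule for named genes took all 8 genes, Slc26a5, up to 4 genes of each other calcium list with the largest absolute log2 ratio at 5 CPM or more, and the 5 genes most like Ocm, with 2 predicted genes passed over. Genes of the marker lists, Casz1 and mt-Co2 are given for comparison. Scaling, the set of cells, thinning, filters and leaving out each cell were varied with edgeR 4.0.16 and DESeq2 1.42.0 factors. Ratios and intervals were tested on simulated Poisson counts, which hold no amplification. No cell was left out and no doublet caller was run, since cells were picked singly.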

Additional observations from a re-analysis of the deposited data

How the results depend on the processing

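The log2 ratio of Ocm, 0.42, kept its direction under every setting tried. It was 0.46 with the mean and 0.35 with the median of per-cell CPM, 0.38 with TMM and 0.47 with median-of-ratios factors, 0.39 with a total less mitochondrial and ribosomal protein genes, 0.44 with a total less the 8 genes, 0.46 with cells thinned to 7458126 counts, and 0.15 among Xist-pattern cells. It was 0.10 with WT cells 1 to 11 alone, 0.57 with 12 to 45 alone and 0.64 with 46 to 48 alone. Leaving out each cell in turn gave 0.37 (without CKO-labelled cell 12) to 0.46. The median log2 ratio of the 8 genes, 0.15, was 0.11 with TMM and 0.20 with median-of-ratios factors, 0.12 and 0.18 with those 2 other totals, and 0.10, 0.14 and 0.33 against the 3 runs, and 0.13 to 0.18 without each cell. The number of the 8 genes past 2-fold stayed 0 under each setting. At 1.5-fold it was 0 against all WT cells, beside 48% of all measured genes. It was 1 (Calm2) against WT cells 1 to 11 and 2 (Ocm and Calb1) against the 3 WT cells 46 to 48, runs for which that share was not taken. The cause of these shifts was not tested. TMM and median-of-ratios factors move all log2 ratios by -0.04 and 0.04. Of the other 7 genes, Calb1 took the opposite sign under 6 of 11 settings and without 16 of 65 cells, Calb2 under 1 of 11 (WT cells 46 to 48), and the rest under none. The share of all genes past 2-fold was 42% with a minimum of 1 CPM, 54.7% with none and 17.9% at 20 CPM. Pearson's r of log2(CPM + 1) took the opposite sign to Spearman's rho in 10 of 84 correlations. The order per length with the longest coding transcript was chosen after seeing the data. No paired analysis was possible because the numbers of the cells tie no CKO-labelled cell to a WT cell and no result comes from a test. The 8 genes had a count in every cell, but several genes of the other lists were missed in many cells. The part of depth in the correlations was not tested. The number of animals, which the labels do not give, limits all comparisons here.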
